A study of Mus musculus with 9 samples.

Results

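Genes that recruit or mark myeloid cells were followed in ileal epithelial cells of male NOD mice (non-obese diabetic, an inbred strain that develops autoimmune diabetes) at postnatal day 23. They were the genes of an nCounter immune panel named Ccl2, Ccl7, Ccl6, Ccl9, Cxcl1, Cx3cl1, Cx3cr1, Csf1, C1qa and C1qb, chosen by name and role, and they made up 10 of the 561 endogenous and housekeeping genes measured. All mice shared strain, sex, age and cell type, and the libraries formed 3 groups of 3, namely untreated control, antibiotic (labelled 1PAT antibiotics) and cecal material transfer. The labels do not state whether the transfer mice had received antibiotics, nor the dose or course of either treatment. They do not name the animal behind each library either, so the p-values rest on a spread among libraries that may be technical. The nCounter assay counts single transcripts caught by a pair of probes, without amplification, so each value is a whole-number count.

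Chemokines are small secreted proteins that draw leukocytes along a gradient. In the mouse, CCL2 and CCL7 call inflammatory monocytes through the receptor CCR2, CCL6 and CCL9 act through CCR1, and CXCL1 calls neutrophils through CXCR2. Fractalkine, the product of Cx3cl1, is made on epithelial and endothelial surfaces and is read by CX3CR1, a receptor carried by the macrophages that lie beneath the gut epithelium. Csf1 encodes the growth factor that keeps macrophages alive, and C1qa and C1qb encode chains of C1q, the starting molecule of the classical complement pathway, which tissue macrophages make.

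Total counts per library ran from 323129 to 747434. A background limit was set in each library at the mean of its 8 negative-control probes plus 2 SD, and it lay between 7.74 and 17.7 counts. Panel markers of epithelium (Pigr, Ccl25, Defb1 and Il18) summed to between 39192 and 99366 CPM (counts scaled to a common library size with TMM factors), and 3 or 4 of the 4 lay above the limit in each library. T cell markers were present as well, with sums between 12352 and 94295 CPM over 13 genes, so the libraries held RNA of lymphocytes beside that of epithelium. Control replicate 3 stood apart, with the lowest T cell sum and the highest epithelial sum of the 9 libraries, and values without it are given where they matter.

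The 10 genes fell into sharply different ranges of detection. Ccl6, Ccl9, Cxcl1 and Cx3cl1 exceeded the limit in 9 of 9 libraries, while Cx3cr1 did so in 5, Ccl2 and C1qa in 4, and Ccl7, Csf1 and C1qb in 3. Over the panel, 306 of 561 genes exceeded it in all 9 libraries. Of the 90 values of these genes, 58 lay above the limit. All 10 passed the filter for testing, which asked for 3 libraries above the limit, as did 470 genes in all; Ccl7, Csf1 and C1qb passed it at its lowest margin. Fitted fold changes take counts under the limit as measured, so those of the 6 sparse genes rest partly on background.

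**Figure D1:**
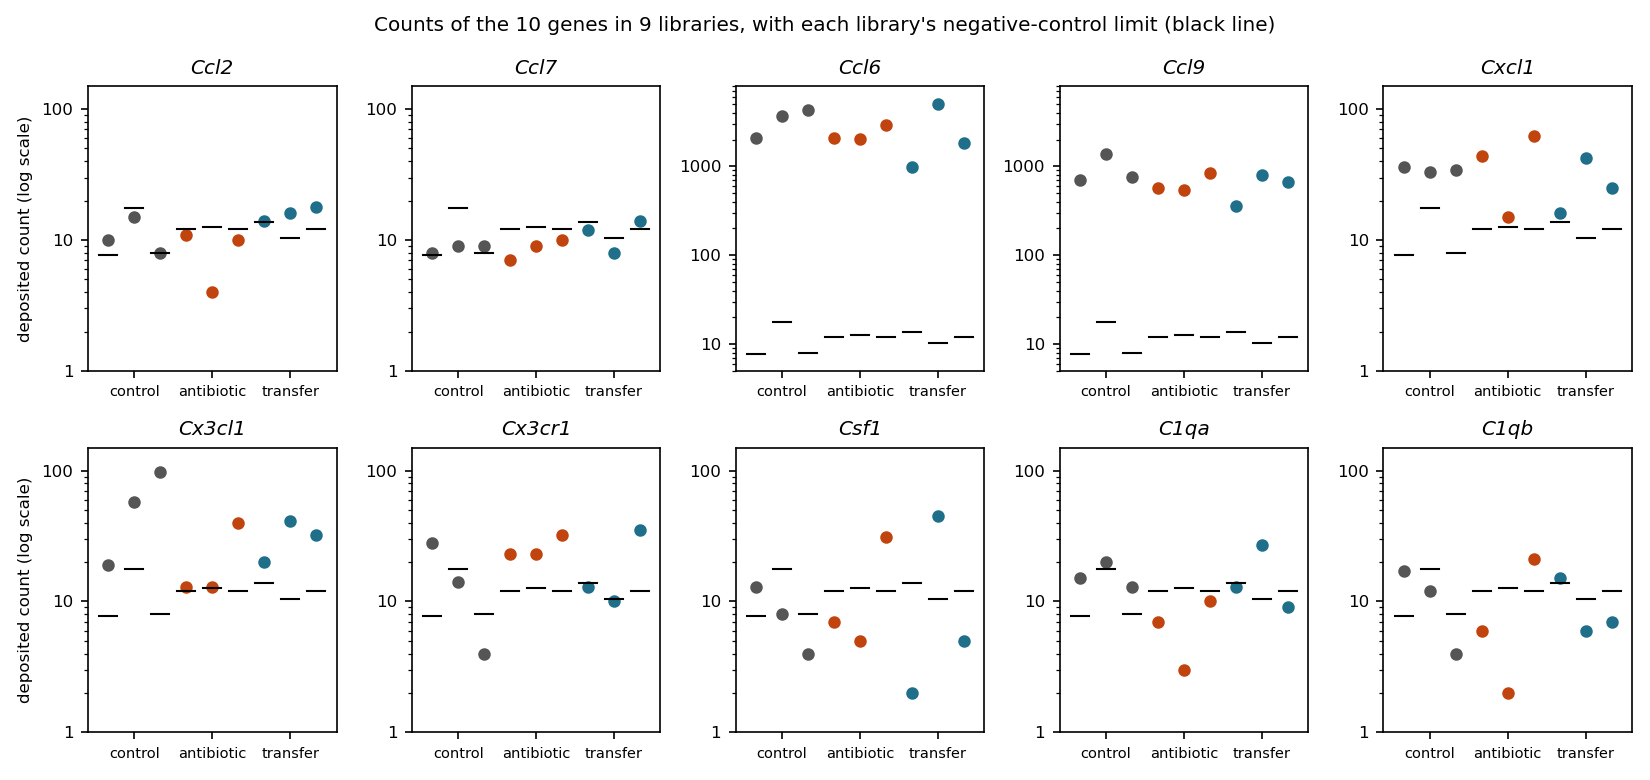
Deposited counts (log scale) of the 10 genes, one point per library, coloured by group (control grey, antibiotic red, transfer blue), with the negative-control limit of each library as a black line. Ccl6 and Ccl9 lie far above the limit in all 9 libraries, Cxcl1 and Cx3cl1 lie above it by less, and the other 6 genes fall on both sides of it.

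The 2 genes far above background were the CCR1 ligands. Ccl6 counts were 2099, 3707 and 4283 in control, 2057, 2037 and 2916 in antibiotic and 989, 5015 and 1812 in transfer libraries, which is 71.8 to 535 times the limit. Ccl9 counts were 708, 1385 and 764 in control, 577, 543 and 838 in antibiotic and 362, 795 and 664 in transfer libraries, or 26.3 to 95.5 times the limit. Their genes lie near each other on chromosome 11, on the same strand. The 100 bases before each start, from RefSeq (GRCm38.p6), are shown because these are the pair of members with strong signal. Capitals mark the bases that are identical in the best local alignment of the 250 bases before each start. Ccl6 is chr11:83593088-83593187 and Ccl9 is chr11:83578637-83578736, both on the minus strand and written 5′ to 3′.
Ccl6: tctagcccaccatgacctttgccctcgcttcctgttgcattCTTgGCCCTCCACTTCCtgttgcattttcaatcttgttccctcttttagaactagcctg
Ccl9: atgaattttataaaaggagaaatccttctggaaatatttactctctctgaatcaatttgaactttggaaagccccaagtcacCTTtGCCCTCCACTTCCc
The aligned stretch held 16 identical bases of 17, at 59 to 43 bases before the start of Ccl6 and 18 to 2 before that of Ccl9. It contains CTTCC, the reverse complement of GGAAG, a core read by ETS-family factors, which either strand holds in 64.1% of 32851 promoters of the same 250-base length, so its presence is common.

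Scaled for depth, Ccl6 averaged 6338 ± 1841 CPM in control, 5169 ± 2048 in antibiotic and 3991 ± 2342 CPM in transfer libraries (SD, n = 3). The groups overlapped throughout, since transfer replicate 2 at 6694 CPM lay above control replicates 1 and 2. Its log2 fold change was -0.67 ± 0.43 (SE) for transfer against control, -0.29 ± 0.42 for antibiotic against control and -0.37 ± 0.42 for transfer against antibiotic (edgeR adjusted p = 0.324, 0.705 and 0.993), none of which passed. Leaving out 1 library gave the first of these between -1.26 (without transfer replicate 2) and -0.45, and it did not pass in any of these fits.

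Ccl6 ran beside the epithelial markers. Its 3 highest libraries, control replicate 3 (8236 CPM), antibiotic replicate 2 (7535 CPM) and transfer replicate 2 (6694 CPM), were those with the highest epithelial marker sums, at 99366, 96795 and 89204 CPM. Its 2 lowest, transfer replicates 1 (2573 CPM) and 3 (2705 CPM), had the lowest sums, at 39192 and 44993 CPM, and T cell marker sums of 86753 and 94295 CPM, the highest of all. Whether the share of epithelial RNA set the level of Ccl6 was not tested. In bulk samples such as these, fewer cells of a type and less RNA per cell cannot be told apart. The panel genes closest to Ccl6 over the 9 libraries were Btnl1, a butyrophilin-like molecule of intestinal epithelium, and Ctnnb1, which encodes beta-catenin. After each gene was centred on its own mean, they differed from Ccl6 by 0.11 and 0.12 on the log2 scale per library on average, while Ccl6 itself deviated from its mean by 0.51.

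Ccl9 was ordered control, antibiotic, transfer. Its level was 1777 ± 475 CPM in control (1538, 2324 and 1469), 1424 ± 506 CPM in antibiotic (1111, 2008 and 1153) and 998 ± 60 CPM in transfer libraries (942, 1061 and 991). The control and antibiotic libraries overlapped, while all 3 transfer libraries lay below every library of the other groups. Among panel genes, 10.6% lay lower without overlap against control and 3.83% against antibiotic. The log2 fold change for transfer against control was -0.83 ± 0.34 (SE), with a 95% interval of -1.57 to -0.09 before adjustment, and it did not pass (edgeR adjusted p = 0.208). Transfer against antibiotic gave -0.51 ± 0.34 (edgeR adjusted p = 0.993) and antibiotic against control -0.32 ± 0.34 (edgeR adjusted p = 0.631). The first value was -0.42 with housekeeping scaling, and in the authors' deposited signal the transfer libraries, at 583 to 659, overlapped control libraries at 595 to 1056. In that signal the transfer libraries lay below the antibiotic libraries, which stood at 688 to 914. All 4 epithelial markers had values below 0 for transfer against control, with a median of -0.42, and their part in the Ccl9 values was not tested. Prim1, a DNA primase subunit, and Nfil3, a transcription factor, were closest to Ccl9, at a mean difference of 0.20 each.

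Ccl6 and Ccl9 did not keep a fixed ratio across libraries. Their ratio of counts ran from 2.68 in control replicate 2 to 6.31 in transfer replicate 2, with 5.61 in control replicate 3. The correlation of log2 CPM over 9 libraries was r = 0.68 (exact permutation p = 0.0481, adjusted p = 0.0961 over 4 pairs; Spearman rho = 0.67, exact permutation p = 0.0589, adjusted p = 0.118), so it did not pass after adjustment. It was 0.65 without the 2 libraries farthest from the median of Ccl6, 0.49 after group means were taken off and 0.15 with housekeeping scaling.

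The monocyte chemokines Ccl2 and Ccl7 stayed at the edge of detection. Ccl2 counts were 10, 15 and 8 in control, 11, 4 and 10 in antibiotic and 14, 16 and 18 in transfer libraries. They exceeded the limit in 1 control, 0 antibiotic and 3 transfer libraries. In CPM, every transfer library (21.4 to 36.4) lay above every antibiotic library (13.8 to 21.2). Groups that did not overlap in this direction were found in 3.62% of the panel, and the authors' deposited signal of Ccl2 did overlap between these groups. With the antibiotic libraries placed at their limit, the ratio of geometric means, transfer over antibiotic, was 1.05. The limit of antibiotic replicate 2, 46.7 CPM, lay above every transfer value, so this ratio is not a smallest difference. The fitted log2 fold change, which counts values below the limit as measured, was 0.74 ± 0.53 (SE; edgeR adjusted p = 0.993).

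Ccl7 counts varied least of the 10 genes in raw form, from 7 to 14, with 8, 9 and 9 in control, 7, 9 and 10 in antibiotic and 12, 8 and 14 in transfer libraries. Only 3 of these values exceeded the limit of their library, control replicates 1 and 3 and transfer replicate 3. Because the counts hardly moved with depth, the CPM values were highest in the 2 libraries with fewest counts, 33.3 in antibiotic replicate 2 and 31.2 in transfer replicate 1, where the limit itself stood at 46.7 and 35.9 CPM. No difference in Ccl7 was detectable at this depth, with fitted log2 fold changes between 0.09 and 0.29 (edgeR adjusted p = 0.764 or more). Ccl2 and Ccl7 gave r = 0.23 over the 9 libraries (exact permutation p = 0.554, adjusted p = 0.554; Spearman rho = 0.27, exact permutation p = 0.493, adjusted p = 0.493), and -0.45 without the 2 libraries farthest from the median of Ccl2. Their receptor gene Ccr2 exceeded the limit in 0 of 9 libraries, with counts of 3 to 9.

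Cxcl1, the neutrophil chemokine, was low but above the limit in all libraries. The counts were 36, 33 and 34 in control, 44, 15 and 62 in antibiotic and 16, 42 and 25 in transfer libraries, or 1.16 to 5.15 times the limit. Levels averaged 66.3 ± 11.4, 75.2 ± 17.1 and 45.0 ± 9.82 CPM in these groups (SD, n = 3). Transfer libraries, at 37.3 to 56.1 CPM, overlapped both other groups by their top library. The log2 fold change was -0.75 ± 0.44 (SE) for transfer against antibiotic and -0.55 ± 0.44 for transfer against control (edgeR adjusted p = 0.993 and 0.428). Antibiotic against control gave 0.20 ± 0.43 (edgeR adjusted p = 0.81). Neutrophil markers were themselves sparse, with 0 to 5 of 6 above the limit in a library, and the CXCL1 receptor gene Cxcr2 exceeded it in 0 control, 1 antibiotic and 2 transfer libraries.

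The 100 bases before the start of Cxcl1 (RefSeq, GRCm38.p6, chr5:90891145-90891244, plus strand) are shown since the gene is a textbook NF-kB target. Capitals mark matches to a form of the NF-kB site, GGGA and TTCC spaced by any 2 bases, searched on both strands of the 250 bases before each start. Here 2 matches overlap, 1 on each strand.
Cxcl1: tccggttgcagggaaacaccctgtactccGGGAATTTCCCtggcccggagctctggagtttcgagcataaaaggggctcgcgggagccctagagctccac
This motif occurred in 397 of 32851 promoters (1.21%), and in 2 of the 7 members with a promoter in the table, Cxcl1 and Csf1. The match describes the sequence and not a site in use in these cells.

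Fractalkine and its receptor showed opposite extremes in control replicate 3. Cx3cl1 counts were 19, 58 and 98 in control, 13, 13 and 40 in antibiotic and 20, 41 and 32 in transfer libraries. Levels averaged 109 ± 74.3 CPM in control, 42.7 ± 15.7 CPM in antibiotic and 51.5 ± 3.51 CPM in transfer libraries (SD, n = 3). The control libraries spread from 41.3 to 188 CPM and their lowest lay inside the antibiotic range and below the transfer range. For antibiotic against control the log2 fold change was -1.35 ± 0.56 (SE), with a 95% interval of -2.57 to -0.13 before adjustment, and for transfer against control -1.08 ± 0.55. Neither passed (edgeR adjusted p = 0.184 and 0.234). Without control replicate 3 the values were -0.76 and -0.48. Without control replicate 1 the first of them was -1.74 (edgeR adjusted p = 0.0555), so it depended on which control libraries were kept. In antibiotic replicates 1 and 2 the counts were only 1.08 and 1.03 times the limit, close to background. The nearest panel genes were Psmb10, an immunoproteasome subunit, and Bcl3, a regulator of NF-kB, with mean differences of 0.24 and 0.27 on the log2 scale.

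Cx3cr1 counts were 28, 14 and 4 in control, 23, 23 and 32 in antibiotic and 13, 10 and 35 in transfer libraries. It exceeded the limit in 3 antibiotic libraries but in only 1 control and 1 transfer library, and its lowest count fell in control replicate 3, where Cx3cl1 was highest. Antibiotic libraries averaged 57.8 ± 23.6 CPM against 30.7 ± 27.3 CPM in control and 33.1 ± 19.5 CPM in transfer libraries, and the groups overlapped. The log2 fold change for antibiotic against control was 0.90 ± 0.71 (SE; edgeR adjusted p = 0.494), which was 0.39 without control replicate 3 and 1.83 without control replicate 1. T cell marker sums were lowest in control replicate 3 too, at 12352 CPM, and 60310 to 66980 CPM in antibiotic libraries. They did not follow Cx3cr1 throughout, since transfer replicate 1 had 86753 CPM with Cx3cr1 under the limit, and their part in the result was not tested. Closest in pattern were Btk, a kinase of B and myeloid cells, and Sh2d1a, a lymphocyte signalling adaptor (mean differences of 0.32 and 0.35). With Cx3cr1 above the limit in only 5 of 9 libraries, this likeness rests partly on background.

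Over all libraries the pair ran in opposite directions, with r = -0.73 (exact permutation p = 0.0248, adjusted p = 0.0961 over 4 pairs; Spearman rho = -0.77, exact permutation p = 0.0214, adjusted p = 0.0856). The relation did not pass after adjustment. It stood at -0.55 without control replicate 3 and antibiotic replicate 1, the libraries farthest from the median of Cx3cl1, and at -0.67 after group means were taken off. Since 4 of the 9 Cx3cr1 values were at or under the limit, part of this relation is drawn from background counts.

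**Figure D2:**
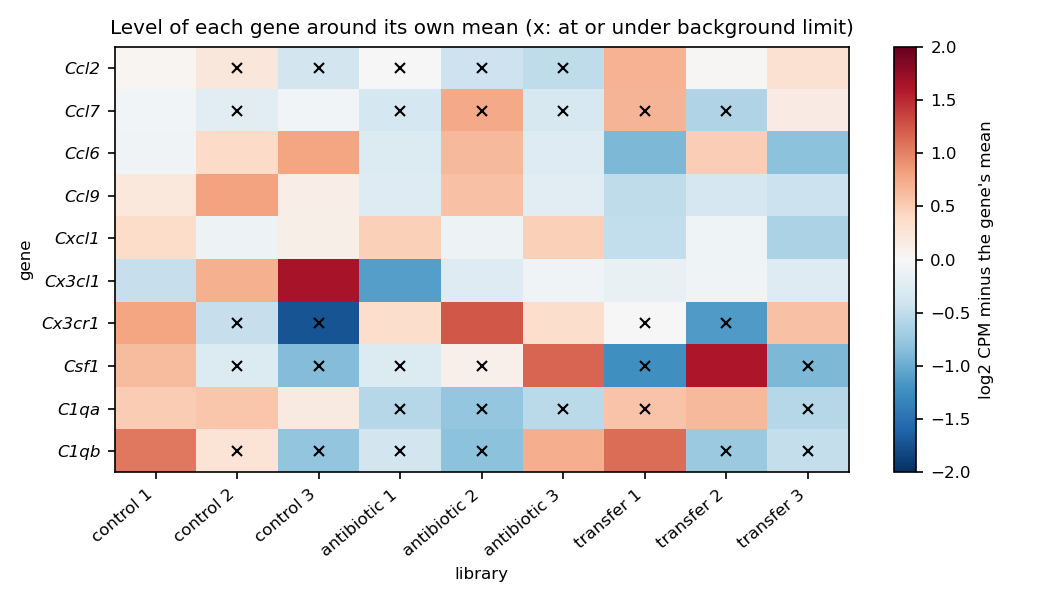
Level of each gene in each library as log2 CPM minus the gene's own mean over the 9 libraries (red above, blue below), with crosses where the count was at or under the library's background limit. Cx3cl1 is highest and Cx3cr1 lowest in control replicate 3, and Ccl6 is lowest in transfer replicates 1 and 3.

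Csf1 was detected in a single library of each group. Its counts were 13, 8 and 4 in control, 7, 5 and 31 in antibiotic and 2, 45 and 5 in transfer libraries, and those above the limit were control replicate 1, antibiotic replicate 3 and transfer replicate 2. Scaled for depth, transfer libraries had an SD of 31.0 CPM, wider than any gap between the group means (16.4, 24.9 and 24.2 CPM in control, antibiotic and transfer libraries). The log2 fold change for transfer against antibiotic was -0.02 ± 0.84 (SE; edgeR adjusted p = 0.993), and it was -1.94 without transfer replicate 2 and 0.69 without antibiotic replicate 3. Csf1r, the receptor for this growth factor, exceeded the limit in 3 control, 1 antibiotic and 1 transfer library. The genes closest to Csf1, Ifna1 and Il19, were above the limit in 3 libraries each, so this likeness is between genes mostly at background.

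C1qa was above the limit in all control libraries and in no antibiotic library. The counts were 15, 20 and 13 in control, 7, 3 and 10 in antibiotic and 13, 27 and 9 in transfer libraries, where only transfer replicate 2 exceeded the limit. In CPM, the control libraries (25.0 to 33.6) did not overlap the antibiotic libraries (11.1 to 13.8), nor did they in the authors' deposited signal. Of the 10 genes, 1 did not overlap between these groups, against 28.9% of the panel in either direction and 10.9% in this one. With each antibiotic library at its limit, the ratio of geometric means, control over antibiotic, was 1.15. The limit of antibiotic replicate 2, 46.7 CPM, lay above every control value, so a level like that of control would have gone undetected there. The size of a difference cannot be read at this depth. The fitted log2 fold change, which counts the antibiotic values under the limit as measured and so gives no size of its own, was -1.21 ± 0.57 (SE) and did not pass (edgeR adjusted p = 0.236). Transfer against antibiotic, with 1 of 6 libraries above the limit, did not pass either (edgeR adjusted p = 0.993), and transfer against control -0.14 ± 0.53 (edgeR adjusted p = 0.878). The nearest genes were Mapkapk2, a stress-activated kinase, and Stat5b, a cytokine signal transducer, at mean differences of 0.17 and 0.22. With C1qa above the limit in only 4 of 9 libraries, this likeness rests partly on background.

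C1qb, the partner chain, had a different pattern of detection. It was counted at 17, 12 and 4 in control, 6, 2 and 21 in antibiotic and 15, 6 and 7 in transfer libraries, with 1 library of each group above the limit. These were control replicate 1, antibiotic replicate 3 and transfer replicate 1, whereas C1qa was below the limit in the last of these libraries as well as in antibiotic replicate 3. Its log2 fold change for antibiotic against control was -0.33 ± 0.78 (SE; edgeR adjusted p = 0.83), and 0.27 without control replicate 1. The correlation between the 2 chains was r = 0.37 (exact permutation p = 0.309, adjusted p = 0.412; Spearman rho = 0.43, exact permutation p = 0.25, adjusted p = 0.333), and 0.10 without the 2 libraries farthest from the median of C1qa. Most of these values lay at background, so the relation between the chains cannot be read from them.

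Markers of monocytes and macrophages gave a divided picture beside C1q. Of 15 such genes on the panel, between 6 and 11 exceeded the limit in a library, and their summed level was 3903 to 5751 CPM in control, 5093 to 6232 CPM in antibiotic and 5192 to 7708 CPM in transfer libraries. The macrophage scavenger receptors Cd163 and Msr1, the Fc receptor Fcgr1 and Trem2 exceeded it in 0 of 9 libraries, the scavenger receptor Marco in 2 and Emr1, which encodes the F4/80 antigen, in 4. Cd14, Cybb, Fcer1g, Fcgr3, Itgam and Tyrobp, which neutrophils or NK cells can also express, exceeded it in 9 of 9. Tyrobp, an adaptor of NK as well as myeloid cells, was counted at 424 to 3054. Csf1r exceeded the limit in the 4 libraries in which C1qa did, and in antibiotic replicate 3 besides. Of the 10 tested in this list, which leaves out the members, 5 were above 0 and 5 below for antibiotic against control and 0 passed, with a median log2 fold change of -0.20. Cd14, the lipopolysaccharide co-receptor, had the smallest p among them, at 1874 ± 417 CPM with no treatment and 700.3 ± 116 CPM with antibiotic, a log2 fold change of -1.42 ± 0.33 (SE; edgeR adjusted p = 0.0614). For transfer against control Cd14 again had the smallest p of the list, at -1.23 ± 0.33 (edgeR adjusted p = 0.181), while the list's median was 0.47 with 7 values above 0 and 3 below. For transfer against antibiotic the median was 0.21, and the smallest p belonged to Fcgr4, an Fc receptor gene above the limit in no antibiotic library and in 2 transfer libraries.

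**Figure D3:**
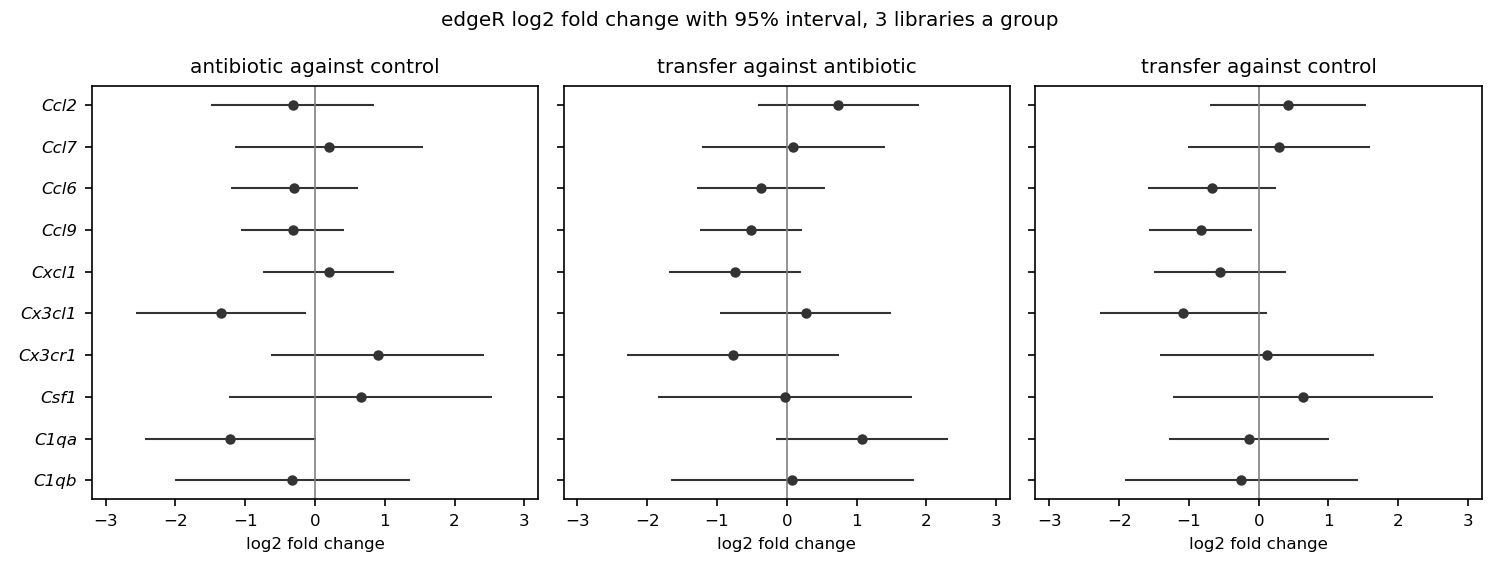
Fitted log2 fold change (points) and 95% interval before adjustment (lines) of the 10 genes from edgeR, for the 3 comparisons with 3 libraries a group. The intervals of Cx3cl1 for antibiotic against control and of Ccl9 for transfer against control exclude 0, and neither passed after adjustment over 470 genes.

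Set beside the panel, none of the 10 genes passed the test in any comparison. At an adjusted p under 0.05, 0 of 10 passed for antibiotic against control, where 0.0% of the 470 tested genes passed in edgeR. Before adjustment 1 of 10 (Cx3cl1, lower) was under 0.05, against 21.7% of the panel, or 7.45% in that direction. The median log2 fold change of the 10 was -0.31, with 4 values above 0 and 6 below, while the median of all tested genes was 0.03. DESeq2 called 51 genes of the panel and 0 of the 10. It gave no adjusted p to sparse members such as Ccl2, Ccl7 and Csf1, so these could not be called.

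For transfer against antibiotic, 0 of 10 genes passed, against 0.0% of the panel, and 0 of 10 were under 0.05 before adjustment, against 2.55% in either direction (1.28% higher and 1.28% lower). The groups did not overlap for Ccl2 (higher) and Ccl9 (lower), 2 of 10 genes, against 7.45% of the panel in either direction, 3.62% higher and 3.83% lower. The median was 0.03, with 5 values on each side of 0, and -0.02 over all tested genes. DESeq2 called 0 genes in this comparison.

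For transfer against control, which shares its control libraries with antibiotic against control, 0 of 10 passed, against 0.0% of the panel in edgeR, and 1 of 10 (Ccl9, lower) was under 0.05 before adjustment, against 22.3% of the panel, or 7.23% in that direction. For Ccl9 the groups also did not overlap, making 1 of 10 genes, against 26.4% of the panel in either direction and 10.6% in the lower one. Of the 10 values 4 were above 0 and 6 below, with a median of -0.19, and the median of all tested genes was 0.08. DESeq2 called 40 genes of the panel and 0 of the 10. The 95% intervals of the 10 genes reached between 0.74 and 1.86 to either side on the log2 scale in this comparison, so for most of them a 2-fold difference was within the error.

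Other genes of the same routes were counted from lists of receptors, further chemokines, neutrophil markers and complement. Among receptors of the ligands, 4 of 6 on the panel were tested and 0 passed in any comparison. Cxcr2 had the smallest p of these for antibiotic against control, yet only 1 of these 6 libraries, an antibiotic one, exceeded the limit, and its fold is left out. For transfer against antibiotic it was Csf1r (edgeR adjusted p = 0.993), above the limit in 1 library of each group, and its fold is left out likewise. The median of the list was 0.55 for antibiotic against control, -0.26 for transfer against antibiotic and 0.30 for transfer against control.

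Of the other myeloid chemokines and colony-stimulating factors, 4 of 9 on the panel were tested, and 0 passed. The list's median log2 fold change was 0.96 for antibiotic against control and 1.09 for transfer against control, with 3 of 4 above 0 each time, and -0.05 for transfer against antibiotic. Ccl4, a chemokine made by T and NK cells as well as by macrophages, had the smallest p in all 3 comparisons. It measured 720 ± 339 CPM without treatment, 1600 ± 235 CPM with antibiotic and 2022 ± 714 CPM with transfer, with a log2 fold change of 1.49 ± 0.42 for transfer against control (SE; edgeR adjusted p = 0.181). Its groups did not overlap there, nor for antibiotic against control, at 1.15 ± 0.42 (edgeR adjusted p = 0.139). The lowest Ccl4 value, 361 CPM, was that of control replicate 3. Leaving out 1 library gave 1.13 to 1.85 for transfer against control and 0.79 to 1.51 for antibiotic against control. T cell marker sums were higher in antibiotic and transfer than in control libraries too, and their part in the Ccl4 values was not tested.

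Neutrophil markers had 3 of 6 genes tested and 0 passing, with medians of 0.04, -0.15 and 0.62 for antibiotic against control, transfer against antibiotic and transfer against control. S100a8, a calprotectin subunit abundant in neutrophils, stood at 129 ± 29.1 CPM after transfer and at 56.4 ± 49.3 CPM after antibiotic, a log2 fold change of 1.12 ± 0.71 (SE; edgeR adjusted p = 0.993), which was 0.66 without antibiotic replicate 2 and 1.92 without antibiotic replicate 3. The classical and early complement list had 5 of 7 genes tested, 4 of them below 0 for antibiotic against control and 5 of 5 for transfer against control, with medians of -0.60 and -0.85, and 0 passed. For transfer against antibiotic its median was -0.28. The median of -0.60 was the value of C1qbp itself, which is not a complement component. In this list C2 and C1ra exceeded the limit in 9 and 8 libraries, but C3 and Serping1 in only 3 and 4. C1qbp, a mitochondrial protein named for binding C1q, stood at 2550 ± 425 CPM after transfer against 4143 ± 75.5 CPM in controls, with a log2 fold change of -0.70 ± 0.29 (SE; edgeR adjusted p = 0.208). C3, the central complement protein, had the smallest p of this list for antibiotic against control, but every antibiotic library was under the limit, as was 1 control library, and its fold is left out.

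**Figure D4:**
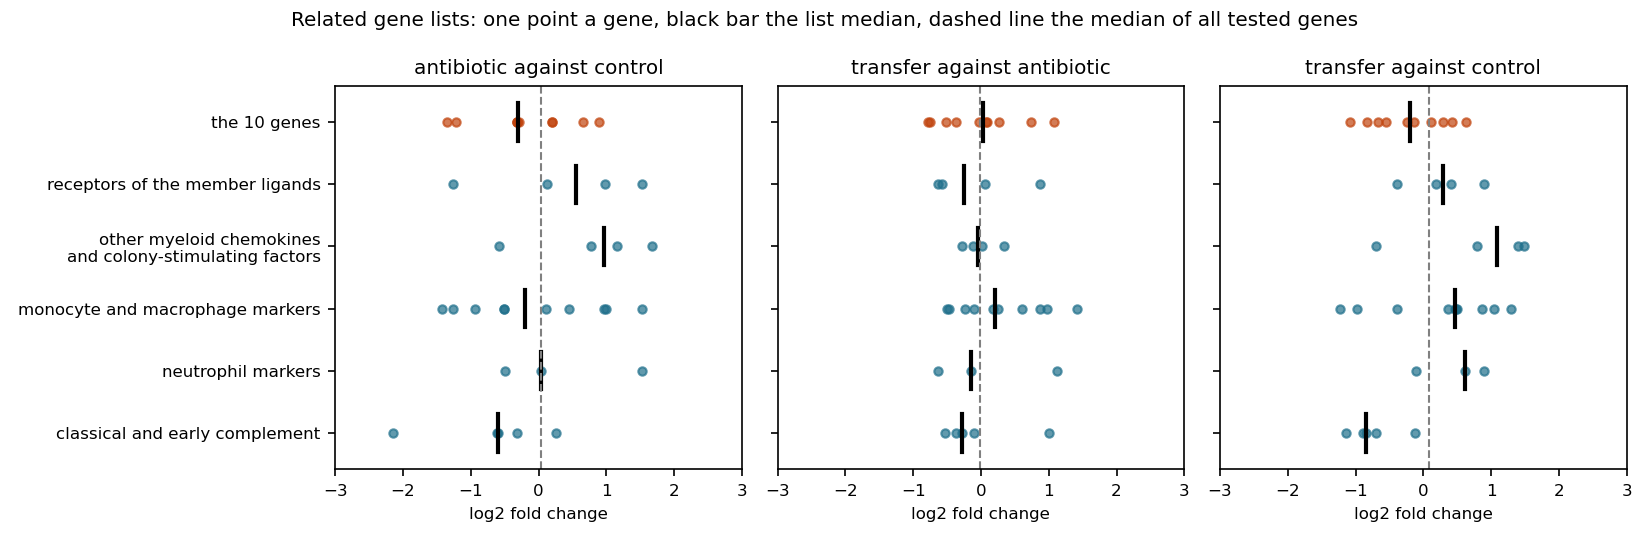
Fitted log2 fold change of the 10 genes and of the tested genes of 5 related lists (points), with the median of each list (black bar) and that of all 470 tested genes (dashed line), for the 3 comparisons. The medians of the 10 genes lie at -0.31, 0.03 and -0.19, and 0 genes shown passed in edgeR.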

How the data were processed

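Total RNA was isolated with TRIzol and then purified on RNeasy columns, per the labels' protocols, and all libraries carry the same batch label. Each library's file held whole-number counts per probe as deposited by the authors, unnormalised, for 547 endogenous, 14 housekeeping, 8 negative-control and 6 positive spike-in probes, per the file headers; counting software is not given in the sources used here. A further table held a signal which the authors had scaled before they deposited it: the values equalled the counts times 1 factor per library (0.734 to 1.82), inverse to the arithmetic housekeeping mean.

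Counts were tested with edgeR 4.0.16 (R 4.3.3), glmQLFit and glmQLFTest, in 1 fit of 9 libraries with TMM factors (0.837 to 1.1), no covariates and 6 residual degrees of freedom. Genes counted above the negative-control mean plus 2 SD in 3 or more libraries were kept (470 of 561). Benjamini-Hochberg adjustment ran over these 470 genes with a threshold of 0.05. CPM came from edgeR's cpm function over kept genes, with a prior count of 2 in log2 CPM. Standard errors are those implied by the test, and 95% intervals cover 1 gene. An exact permutation test of 2 groups of 3 has a smallest p of 0.1, so none was run on single genes. Probes differ in efficiency, so levels were not compared between genes.

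The members and gene lists were chosen with earlier results of these data known. The named genes were the 10 members, the non-member with the smallest p of each of 5 lists in each comparison, and the 2 endogenous genes with the smallest mean absolute difference from each member in centred log2 CPM. Genes named for detection only (Ccr2, Cd163, Msr1, Fcgr1, Trem2, Marco, Emr1, Cybb, Fcer1g, Fcgr3, Itgam, Tyrobp, C2, C1ra and Serping1) were picked after their values were seen. RefSeq matched 10 of 10 members by accession and held promoters for 7; the alignment scored 2 for a match, -3 for a mismatch, -6 to open and -2 to extend a gap (Biopython 1.88).

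Alternatives were DESeq2 1.42.0 and its size factors in edgeR, housekeeping and spike-in scaling, no filter, a block on the replicate number, limma 3.58.1 on log2(value + 1) of the deposited signal, and leaving out each library. On simulated data for antibiotic against control (10 sets, 200 of 470 genes changed), edgeR recovered 24.5% of genes changed 2-fold and 84.4% of those changed 4-fold, with 3.88% false positives among its calls. Every simulated gene had the same spread, and no library stood apart as control replicate 3 does. The rates cover all kept genes together, so they do not give the recovery of the sparse members.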

Additional observations from a re-analysis of the deposited data

How the results depend on the processing

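Of the 10 genes, 0 passed in any comparison under any of these alternatives. Their smallest edgeR adjusted p was 0.0555, for Cx3cl1 in antibiotic against control without control replicate 1, and DESeq2's smallest was 0.0777. For antibiotic against control, DESeq2 gave sparse members such as Ccl2, Ccl7 and Csf1 no adjusted p, so they could not pass there. Over the panel, DESeq2 called 51 genes for antibiotic against control and 40 for transfer against control, spike-in scaling called 2 and 0, and leaving out 1 library gave 0 to 23 (23 without control replicate 1, 9 without control replicate 3, 1 without antibiotic replicate 3) and 0 to 2 (2 without control replicate 3, 1 without control replicate 1); for transfer against antibiotic every alternative gave 0. Scaling by spike-ins moved the median of all genes by -2.02, 2.08 and 0.05 (log2) for antibiotic against control, transfer against antibiotic and transfer against control, and housekeeping scaling by 0.29, 0.10 and 0.38. Spike-in scaling turned the sign for antibiotic against control in Ccl7 (-1.91), Cxcl1 (-1.70), Cx3cr1 (-1.71), Csf1 (-1.31), Cxcr2 (-0.060) and Ccl4 (-0.93), for transfer against antibiotic in Ccl6 (1.73), Ccl9 (1.71), Cxcl1 (1.15), Cx3cr1 (1.52) and Csf1 (1.32), and for transfer against control in Cx3cr1 (-0.19). Housekeeping scaling turned Ccl2 for antibiotic against control (0.00012) and, for transfer against control, C1qa (0.22) and C1qb (0.14), as did the deposited signal (0.15 and 0.11); the replicate block turned C1qb for transfer against antibiotic (-0.11). The cause of these changes beyond the shift itself was not tested. Leaving out 1 library turned the sign of small values. For antibiotic against control the ranges were -0.28 to 0.42 for Ccl7, -0.053 to 1.25 for Csf1 and -1.10 to 0.27 for C1qb. For transfer against antibiotic they were -0.22 to 0.57 for Ccl7, -0.97 to 0.0018 for Ccl6, -0.010 to 0.53 for Cx3cl1, -1.94 to 0.69 for Csf1 and -0.84 to 0.85 for C1qb, and for transfer against control -0.069 to 0.63 for Ccl7, -0.50 to 1.06 for Cx3cr1, -1.29 to 1.23 for Csf1, -0.41 to 0.13 for C1qa and -1.20 to 0.35 for C1qb. DESeq2 called Ccl4 and Cd14 for transfer against control and Cd14 for antibiotic against control. Without the 2 libraries farthest from the median, the correlations were 0.10 (C1qa with C1qb), -0.55 (Cx3cl1 with Cx3cr1), -0.45 (Ccl2 with Ccl7, its sign turned) and 0.65 (Ccl6 with Ccl9). Deviations of same-numbered libraries from their group means had correlations of -0.49 to 0.34. Libraries of a group also differed in epithelial and T cell marker sums, so these values cannot show whether the numbers pair the samples. The replicate block called 0 genes in each comparison. Counts near the negative-control limit restrict Ccl2, Ccl7, Cx3cr1, Csf1, C1qa and C1qb to large differences.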
